A study of Homo sapiens with 12 samples.

Results

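Expression of 10 Notch pathway genes was followed through the differentiation of H1 cells, a human embryonic stem cell line in long use, toward blood. The genes were the receptors NOTCH1, NOTCH2, NOTCH3 and NOTCH4, the ligands DLL1, DLL4, JAG1 and JAG2, and the target genes HES1 and HEY1. They were found by symbol among the 56593 symbols of an RNA-seq table, and each of the 10 stood on 1 line. Undifferentiated H1 cells were compared with APLNR+ mesoderm cells of day 2, CD31+CD34+ hemogenic endothelial progenitors of day 5 and CD43+ hematopoietic progenitors of day 8, with 3 libraries each and 12 in all. The APLNR+ cells came from H1 cells given activin A and BMP4 for 2 days, and the later populations from such cultures moved on to VEGF and bFGF, so the series follows 1 cell line in 1 culture system. The study's methods speak of independent experiments in general terms, but the labels do not say whether the 3 libraries of a population came from separate cultures, and p-values measure the spread between these libraries.

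Notch receptors sit in the cell membrane and bind ligands of the Delta-like and Jagged families on neighboring cells. Binding leads to cleavage of the receptor by ADAM proteases and gamma-secretase, and the freed intracellular part joins the DNA-binding protein RBPJ in the nucleus and switches on genes of the HES and HEY families. In the vessel wall the pathway is known for arterial identity and for sprouting, and in the embryo for the formation of blood stem cells from hemogenic endothelium.

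Levels are given as FPKM, a read count divided by gene length and library total, which allows genes of different length to be set side by side as far as the authors' transcript lengths hold. Changes are differences of log2(FPKM + 1), which understate the change of genes with low values. To be called raised or lowered, a gene had to change by 2-fold or more on that scale with a limma adjusted p below 0.05. The test covered the 14840 genes with 3 or more libraries at 1 FPKM or above, and 8 of the 10 were among them. NOTCH4 and DLL1 stayed below that limit and are given by level. No member was listed at exactly 0 in any library. FPKM holds no read totals, but the spacing of low values gave relative depths from 0.555 to 1.27 times that of CD43+ replicate 3, with replicate 1 the shallowest library of every population (0.555 to 0.753), and low values are least precise there. Surface genes rose into the population sorted by them. APLNR was at 0.386 to 0.688 FPKM in H1 and 359 to 402 FPKM in APLNR+ libraries. CD34 was at 0.880 to 1.12 FPKM in APLNR+ and 39.8 to 53.4 FPKM in CD31+CD34+ libraries. SPN, which encodes CD43, was at 2.84 to 4.20 FPKM in CD31+CD34+ and 60.3 to 90.6 FPKM in CD43+ libraries. APLNR did not separate APLNR+ from CD31+CD34+ libraries, where it was at 381 to 429 FPKM. CD34 was still at 17.4 to 25.1 FPKM in CD43+ libraries.

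Along the series the calls of the 8 tested genes fell at different steps. HES1 alone was called at the step from H1 to APLNR+ cells. At the next step 4 genes were raised (NOTCH1, DLL4, JAG2 and HEY1) and 0 lowered. At the last step, into CD43+ cells, DLL4 was raised while NOTCH3 and JAG2 were lowered. Between the ends of the series NOTCH1, DLL4, HES1 and HEY1 were higher in CD43+ cells than in H1. From H1 to APLNR+ cells 1 of the 8 was called, and 15.9% of all genes tested were (8.3% raised and 7.62% lowered). From there to CD31+CD34+ cells 4 of 8 were called, all raised, beside 29.6% of all genes (12.5% raised and 17.1% lowered). Into CD43+ cells 1 was raised and 2 lowered, beside 14.4% of all genes (5.58% raised and 8.79% lowered), and across the whole series 4 were raised, beside 37.1% of all genes (14.6% raised and 22.5% lowered). The members' share at the first step is close to the background. The libraries of the compared populations did not overlap for 7, 7, 5 and 6 of the 8 genes, against 66%, 75.7%, 58% and 76.3% of all genes. The median log2 change of the 8 genes was 0.38, 1.12 and -0.43 at the consecutive steps and 1.09 between the ends, where the median of all genes was -0.12, -0.01, -0.00492 and -0.10. With 3 libraries against 3 an exact permutation test cannot give a p under 0.1, so single-gene p-values here come from the model fitted across all genes.

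**Figure D1:**
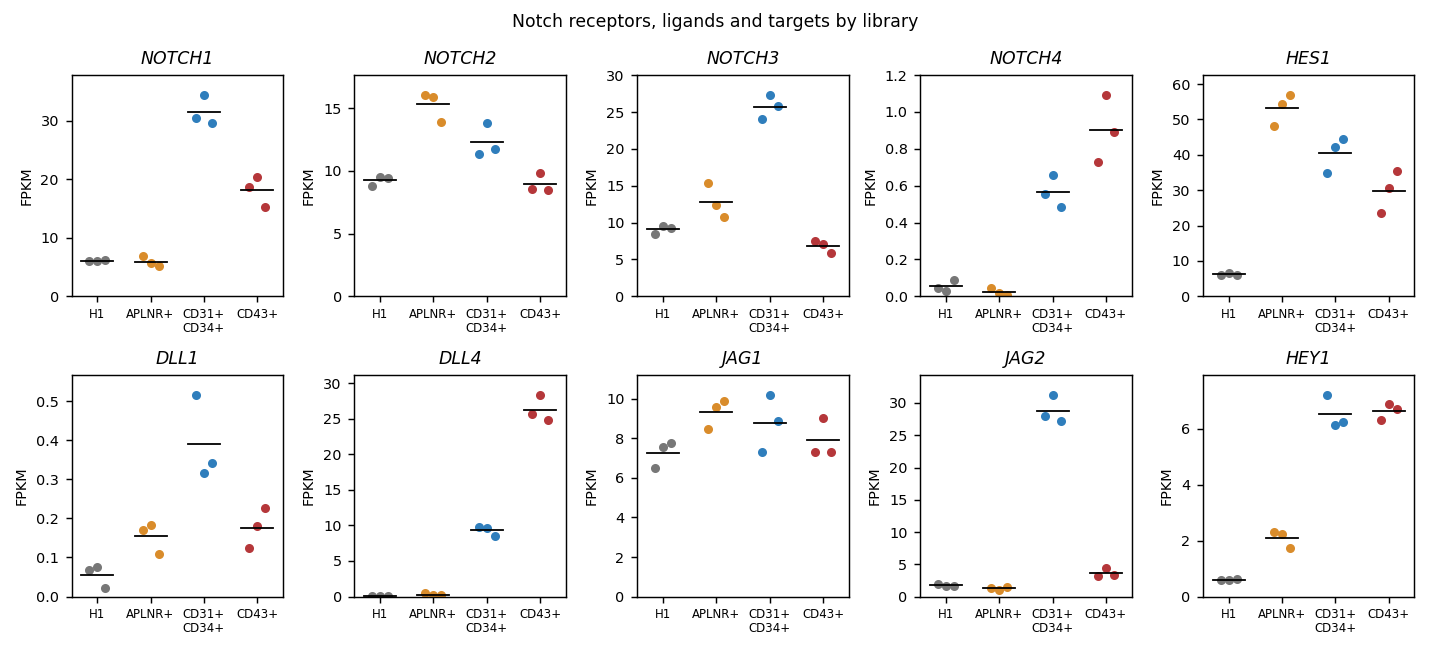
FPKM (linear axis from 0, a scale of its own for each gene) of the 10 Notch genes in the 12 libraries. Points are libraries, in the order of replicates 1 to 3, and black lines are means of 3. JAG2 stood at 27.2 to 31.2 FPKM in CD31+CD34+ libraries and below 5 elsewhere, DLL4 was highest in CD43+ libraries, and the libraries of JAG1 overlapped between populations of adjacent mean.

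NOTCH1, the receptor best known from arterial endothelium and from T cells, had the largest called change of the tested receptors. The 3 H1 libraries held 6.11, 5.97 and 6.18 FPKM, and the APLNR+ libraries 6.82, 5.66 and 5.11 FPKM. In CD31+CD34+ libraries it stood at 30.5, 34.5 and 29.6 FPKM, and in CD43+ libraries at 18.7, 20.4 and 15.2 FPKM. The first pair of populations overlapped, and both stood below the CD43+ libraries, which in turn stood below the CD31+CD34+ libraries without overlap. The rise into CD31+CD34+ cells was 2.25 ± 0.12 on the log2 scale (SE; limma adjusted p 1.16e-08). The later decline, -0.77 ± 0.12 (limma adjusted p 0.000192), did not reach the 2-fold limit, and CD43+ cells remained above H1 by 1.42 (limma adjusted p 3.79e-07). For the step from H1 to APLNR+ cells the interval of the change ran from -0.32 to 0.21 (95%), so a change of 2-fold in either direction lay outside it. The direction of that small difference (-0.05) turned with upper-quartile scaling (0.04), after rescaling without small RNA and mitochondrial genes (0.13) and without APLNR+ replicate 3 (0.03).

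NOTCH3, a receptor known from smooth muscle and pericytes, rose and fell around the hemogenic endothelial stage. Its values were 8.46, 9.57 and 9.33 FPKM in H1, 15.4, 12.4 and 10.7 FPKM in APLNR+, 24.0, 27.4 and 25.8 FPKM in CD31+CD34+ and 7.48, 7.15 and 5.89 FPKM in CD43+ libraries. All 4 populations were separate from each other, in the order CD31+CD34+, APLNR+, H1 and CD43+. The fall into CD43+ cells was called (log2 change -1.77 ± 0.13, limma adjusted p 2.29e-07). The rise into CD31+CD34+ cells was 0.96 ± 0.13 (limma adjusted p 2.38e-05), just under the 2-fold limit, and it passed at 1.09 without APLNR+ replicate 1, at 1.01 without CD31+CD34+ replicate 1 and at 1.14 in replicates 2 and 3 alone. The 8 mural and smooth muscle markers that were listed for comparison (ACTA2 and TAGLN among them) summed to 110.4 to 128 FPKM in H1, 489.8 to 613 in APLNR+, 550.3 to 592 in CD31+CD34+ and 84.8 to 119 FPKM in CD43+ libraries. Of the 8, 6 had a mean of at least 1 FPKM in H1 and in APLNR+ cells and 7 in the later populations, and none was at 0 in all libraries of a population. Into CD43+ cells 3 of the 7 tested were lowered and 1 raised, beside 8.79% and 5.58% of all genes. TAGLN, a smooth muscle protein, went from 246 to 305 FPKM to 13.9 to 16.9 FPKM and RGS5, a pericyte gene, from 197 to 291 FPKM to 23.4 to 36.0 FPKM, while ACTA2, smooth muscle actin, was raised from 10.2 to 16.5 FPKM to 27.1 to 40.5 FPKM (1.32, limma adjusted p 3.51e-05). PDGFRB, a receptor of mural cells, overlapped between these populations. The part of these cells in the course of NOTCH3 was not tested. In such bulk libraries, fewer cells of a type and less RNA per cell cannot be told apart.

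NOTCH2, a widely expressed receptor, was the tested receptor with no call in any comparison, at 8.78 to 9.52 FPKM in H1, 13.9 to 16.1 in APLNR+, 11.3 to 13.9 in CD31+CD34+ and 8.45 to 9.86 FPKM in CD43+ libraries. Its log2 changes at the consecutive steps were 0.67, -0.30 and -0.42, and H1 and CD43+ libraries overlapped. NOTCH2NL, a gene family derived from the start of NOTCH2, was listed separately at 0.501 to 3.07 FPKM, and reads shared between these near copies could have been split in counting, which leaves NOTCH2 uncertain to that extent. NOTCH4, known from endothelium, was the lowest receptor. It stood at 0.0289 to 0.0861 FPKM in H1, 0.00909 to 0.0439 in APLNR+, 0.486 to 0.660 in CD31+CD34+ and 0.729 to 1.09 FPKM in CD43+ libraries. The first pair overlapped, CD31+CD34+ libraries stood above both, and CD43+ libraries above those.

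The mix of receptors differed between populations. Expressed as a share of the summed FPKM of the 4 receptors in each library, NOTCH2 and NOTCH3 led in H1 with 37.7% ± 0.222 and 37.2% ± 0.988 (SD, n = 3), and NOTCH1 held 24.9% ± 1.17. In APLNR+ cells NOTCH2 held 45.2% ± 2.78 and NOTCH1 17.2% ± 0.582. NOTCH1 led with 45.0% ± 1.08 in CD31+CD34+ cells, and with 51.9% ± 1.66 in CD43+ cells. The share of NOTCH1 did not overlap between any consecutive populations, while the share of NOTCH3 ranged from 35.8% to 40.1% over the first 3 populations and dropped to 18.6% to 21.1% in CD43+ libraries. The summed level of the receptors was 24.5 ± 0.952, 34.0 ± 4.26, 70.2 ± 5.42 and 34.8 ± 4.07 FPKM from H1 to CD43+ cells. The receptor sums of APLNR+ and CD43+ cells were thus close, with NOTCH1 at different shares.

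**Figure D2:**
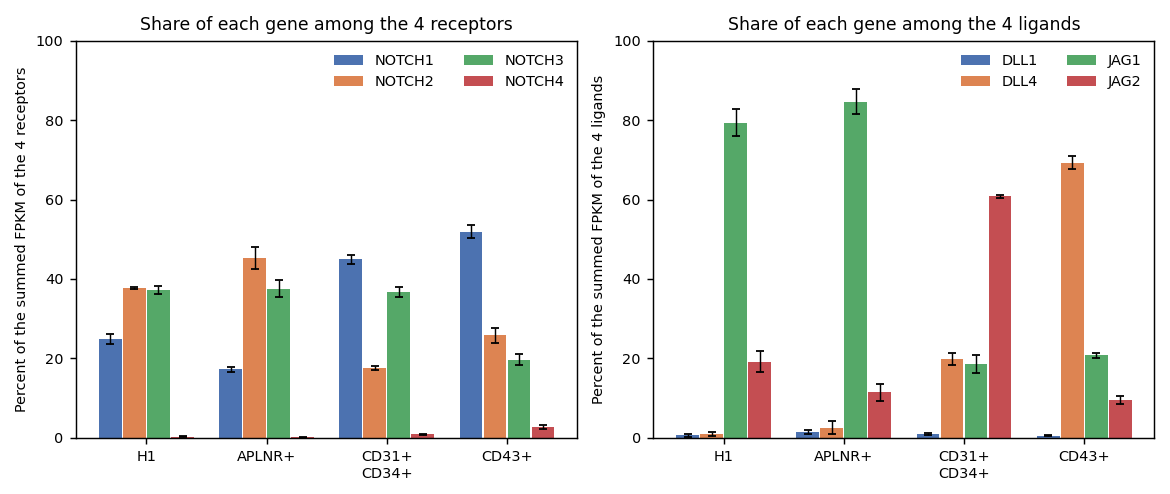
Share of each gene in the summed FPKM of the 4 receptors (left) and the 4 ligands (right), in percent, as the mean of 3 libraries per population with SD bars. NOTCH1 led the receptors in CD31+CD34+ and CD43+ cells. Of these 4 ligands JAG1 led in H1 and APLNR+ cells, JAG2 in CD31+CD34+ cells and DLL4 in CD43+ cells. DLL3 and DLK1 are not included.

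Among the ligands, DLL4 and JAG2 parted after the hemogenic endothelial stage. DLL4, the Delta-like ligand of arterial and sprouting endothelial cells, was read at 0.121, 0.0896 and 0.0331 FPKM in the H1 libraries, then at 0.448, 0.184 and 0.193 FPKM in APLNR+ libraries. It reached 9.84, 9.68 and 8.55 FPKM in CD31+CD34+ libraries and 25.7, 28.4 and 24.8 FPKM in CD43+ libraries. All 4 populations were separate from each other and stood in the order of the series. The mean FPKM of CD31+CD34+ cells was 34.0 times that of APLNR+ cells, and that of CD43+ cells was 2.81 times that of CD31+CD34+ cells. On the log2(FPKM + 1) scale the changes were 3.03 ± 0.11 (SE; limma adjusted p 3.16e-10) and 1.40 ± 0.11 (limma adjusted p 3.95e-07). The small difference between H1 and APLNR+ cells (0.23, limma adjusted p 0.0797) passed the 2-fold limit only with a pseudocount of 0.1, at 1.01.

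JAG2, a Jagged ligand, was highest in CD31+CD34+ cells. Its values were 1.90, 1.68 and 1.64 FPKM in H1, 1.29, 0.961 and 1.52 FPKM in APLNR+, 27.9, 31.2 and 27.2 FPKM in CD31+CD34+ and 3.13, 4.41 and 3.41 FPKM in CD43+ libraries. No pair of populations overlapped. JAG2 rose by 3.73 ± 0.13 into CD31+CD34+ cells (limma adjusted p 2.3e-10) and had a log2 change of -2.69 ± 0.13 into CD43+ cells (limma adjusted p 6.4e-09). The mean FPKM in CD31+CD34+ cells was 7.89 times that in CD43+ cells. CD43+ cells kept more JAG2 than H1, at 2.10 times its mean FPKM. On the log2(FPKM + 1) scale this was under the 2-fold limit (0.75, limma adjusted p 0.00015). With a pseudocount of 0.1 it passed the limit, at 1.01.

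JAG1, the other Jagged ligand, passed the 2-fold limit at no step. It was at 6.48 to 7.76 FPKM in H1, 8.48 to 9.89 in APLNR+, 7.30 to 10.2 in CD31+CD34+ and 7.33 to 9.03 FPKM in CD43+ libraries. Populations of adjacent mean overlapped throughout, while H1 and APLNR+ libraries were separate (0.32, limma adjusted p 0.0476). The 95% intervals of its log2 change were 0.04 to 0.60, -0.36 to 0.19 and -0.41 to 0.14 at the consecutive steps, all within 2-fold. DLL1, a Delta-like ligand of early mesoderm and somites, was below 0.6 FPKM in every library, with 0.0225 to 0.0744 FPKM in H1, 0.109 to 0.182 in APLNR+, 0.316 to 0.516 in CD31+CD34+ and 0.124 to 0.226 FPKM in CD43+ libraries. Its highest population was CD31+CD34+, whose libraries did not overlap those of CD43+ cells.

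Set against the sum of the 4 ligands, JAG1 held 79.4% ± 3.38 (SD, n = 3) of H1 cells' ligand FPKM and 84.6% ± 3.09 of that of APLNR+ cells. In CD31+CD34+ cells JAG2 held 60.8% ± 0.393, DLL4 19.8% ± 1.55 and JAG1 18.5% ± 2.17. In CD43+ cells DLL4 held 69.2% ± 1.64, JAG1 20.7% ± 0.688 and JAG2 9.55% ± 0.944. Among these 4 the leading ligand thus changed at both later steps. The shares of JAG2 and of DLL4 did not overlap between CD31+CD34+ and CD43+ libraries. The further ligands DLL3 and DLK1, described below, are outside this sum. DLL3 had a mean of 33.8 FPKM in APLNR+ cells, above JAG1 (9.31), and DLK1 of 104 FPKM in CD43+ cells, above DLL4 (26.3). The ligand sum ran from 8.57 to 9.45 FPKM in H1, 10.4 to 11.7 in APLNR+, 45.0 to 51.4 in CD31+CD34+ and 35.8 to 42.0 FPKM in CD43+ libraries.

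Endothelial and blood markers also changed at the steps where DLL4 and JAG2 were called, though not all in the same direction. The 12 endothelial markers (CDH5, KDR and TEK among them) summed to 54.1 to 58.9 FPKM in H1, 69.5 to 83.4 in APLNR+, 1491 to 1661 in CD31+CD34+ and 568 to 691 FPKM in CD43+ libraries, with 4, 3, 11 and 12 of them at a mean of at least 1 FPKM and none at 0 throughout a population. At the step into CD43+ cells 6 of the 12 were lowered and 2 raised, beside 8.79% and 5.58% of all genes. PECAM1, which encodes CD31, was at 50.9 to 59.0 FPKM in CD31+CD34+ and at 82.6 to 104 FPKM in CD43+ libraries, and CDH5, a junction protein of endothelium, at 79.1 to 108 and 26.5 to 38.4 FPKM. The 12 blood markers (GATA1 and ITGA2B among them) summed to 9.39 to 11.7, 7.20 to 9.23, 66.5 to 87.9 and 2521 to 3113 FPKM, with 2, 3, 10 and 11 at a mean of at least 1 FPKM. PTPRC was at 0 in all CD31+CD34+ libraries and at 0 to 0.521 FPKM in CD43+ libraries. The largest means in CD43+ cells were those of HBG2 (1324 FPKM), ITGA2B (575 FPKM) and HBE1 (525 FPKM). DLL4 rose at the step into CD43+ cells, and the part of remaining endothelial cells in its CD43+ level was not tested.

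**Figure D3:**
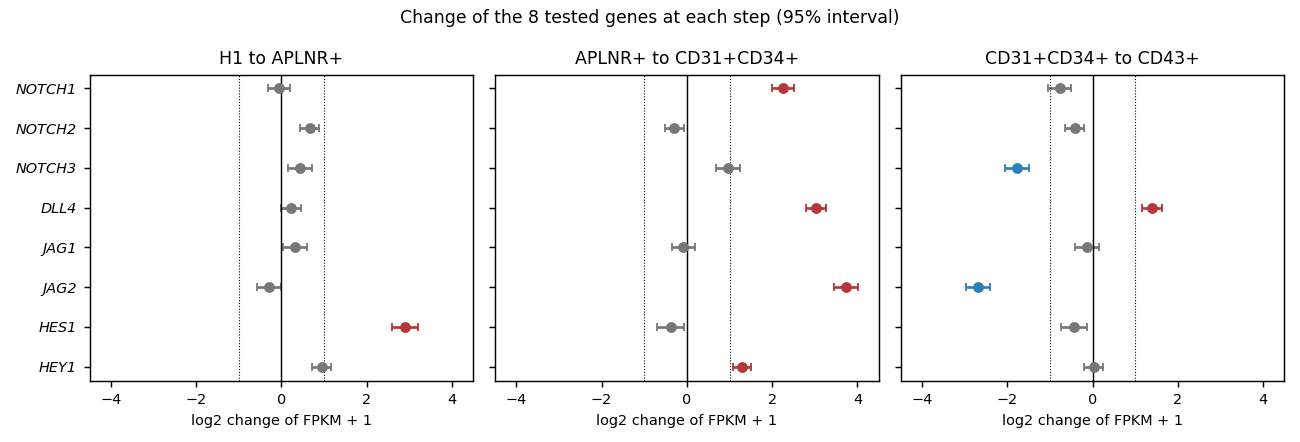
Change of the 8 tested genes at each consecutive step, as the difference of log2(FPKM + 1) with its 95% interval from the fit across all genes. Red points were called raised, blue points lowered and grey points neither, and dotted lines mark 2-fold. HES1 was called at the first step, NOTCH1, DLL4, JAG2 and HEY1 at the second, and NOTCH3, DLL4 and JAG2 at the third.

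The target genes HES1 and HEY1 encode repressors of the basic helix-loop-helix class. Both rose from H1 to APLNR+ cells, where HES1 alone passed the 2-fold limit, and HEY1 passed it at the next step. HES1 was read at 5.87, 6.69 and 6.06 FPKM in the H1 libraries, against 48.1, 54.4 and 57.0 FPKM in APLNR+ libraries. It was then at 35.0, 42.3 and 44.4 FPKM in CD31+CD34+ and at 23.6, 30.6 and 35.3 FPKM in CD43+ libraries. The H1 libraries stood below all others, APLNR+ libraries above all others, and the later pair overlapped. The rise from H1 was 2.91 ± 0.14 on the log2 scale (SE; limma adjusted p 5.26e-09), and the later differences of -0.39 and -0.44 were under 2-fold. By mean FPKM, HES1 was the most abundant of the 10 genes in APLNR+, CD31+CD34+ and CD43+ cells, although in CD43+ cells its libraries overlapped those of DLL4.

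HEY1, a target known from heart and arteries, was read at 0.590, 0.595 and 0.616 FPKM in the H1 libraries, against 2.31, 2.23 and 1.73 FPKM in APLNR+ libraries. It was at 7.22, 6.13 and 6.25 FPKM in CD31+CD34+ and at 6.33, 6.88 and 6.73 FPKM in CD43+ libraries. The later pair overlapped and stood above the APLNR+ libraries, which stood above H1. The mean FPKM of APLNR+ cells was 3.48 times that of H1, and that of CD31+CD34+ cells 3.13 times that of APLNR+ cells. On the log2(FPKM + 1) scale the step into CD31+CD34+ cells was called (1.29 ± 0.10, limma adjusted p 2.5e-07). The step from H1 to APLNR+ cells, at 0.94 ± 0.10 (limma adjusted p 6.54e-06), lay just under the limit and passed it at 1.03 without APLNR+ replicate 3, at 1.06 when small RNA and mitochondrial genes were left out of the scaling and at 1.63 with a pseudocount of 0.1. Between CD31+CD34+ and CD43+ cells the interval was -0.19 to 0.24 (95%).

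The promoter of HES1 is shown because, of the members searched, its upstream bases hold TGGGAA, a core sequence bound by RBPJ. The promoter of HES4, a further HES target described below, is shown beside it. Both are the 250 bases before the gene's start on its own strand in RefSeq (GRCh38.p14), HES1 at chr3:194135898-194136147 on the plus strand and HES4 at chr1:1000098-1000347 on the minus strand, with TGGGAA in capitals.
HES1: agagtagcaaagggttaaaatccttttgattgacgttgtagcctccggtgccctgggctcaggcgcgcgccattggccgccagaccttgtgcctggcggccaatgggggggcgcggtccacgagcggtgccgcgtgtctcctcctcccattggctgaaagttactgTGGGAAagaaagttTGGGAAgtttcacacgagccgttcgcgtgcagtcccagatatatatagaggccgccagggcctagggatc
HES4: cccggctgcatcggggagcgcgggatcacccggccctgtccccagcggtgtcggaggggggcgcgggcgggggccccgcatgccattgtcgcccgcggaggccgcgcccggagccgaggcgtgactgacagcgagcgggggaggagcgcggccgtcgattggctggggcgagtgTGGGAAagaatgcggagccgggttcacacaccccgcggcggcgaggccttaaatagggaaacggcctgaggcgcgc
HES1 held 2 matches, 84 to 79 and 70 to 65 bases upstream of the start, and HES4 held 1, 76 to 71 bases upstream, all on the strand of the gene. Both strands were searched for the exact letters TGGGAA, and variant forms of the site were neither sought nor marked. Of 35116 RefSeq promoters of this length 20.8% held at least 1 match and 2.90% at least 2. The longer form GTGGGAA, which contains the core, was met once in each of the printed promoters and in 5.43% of all. Of the 10 members 8 were matched in the promoter table, and HES1 was the 1 member with a match. Of 6 further target genes matched there (HES4, HES5, HES7, HEY2, HEYL and NRARP) 4 held the core. DLL1 and HEY1 were not matched. A match is a stretch of letters and not a measured binding site.

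Other genes of the pathway were taken from lists arranged by role, 51 genes in all, of which 45 were tested. At the consecutive steps 4, 9 and 3 of the 45 were raised and 3, 5 and 7 lowered, and between H1 and CD43+ cells 7 were raised and 4 lowered. The calls in either direction, 7, 14, 10 and 11 of 45, stand beside the 15.9%, 29.6%, 14.4% and 37.1% of all genes given above, and their median changes were 0.09, 0.38, -0.08 and 0.10.

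Of the 3 further ligands, DLL3 and DLK1 each marked 1 population. DLL3, a Delta-like protein of presomitic mesoderm that acts within the cell, was at 1.68 to 2.46 FPKM in H1, 30.1 to 38.7 in APLNR+, 2.91 to 3.87 in CD31+CD34+ and 1.33 to 1.73 FPKM in CD43+ libraries. Its log2 changes were 3.51 (limma adjusted p 6e-10) and -3.01 (limma adjusted p 2.3e-09) into and out of the APLNR+ stage. DLK1, a secreted and membrane-bound relative without the receptor-activating domain, stood at 0.900 to 1.74 FPKM in CD31+CD34+ and 95.1 to 111 FPKM in CD43+ libraries, a log2 change of 5.55 (limma adjusted p 3.18e-11). DLK2 was not tested.

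Of the 7 further target genes 4 were tested. HES4 followed the order of DLL4, with 0.0988 to 0.277, 1.06 to 1.35, 9.05 to 14.1 and 22.2 to 35.1 FPKM from H1 to CD43+ cells, and was raised into CD31+CD34+ cells (2.38, limma adjusted p 2.18e-07) and into CD43+ cells (1.37, limma adjusted p 5.04e-05). HEY2 and NRARP, targets that stayed below 10 FPKM and are named after their values were seen, took other courses. HEY2 was highest in CD31+CD34+ libraries (6.06 to 7.18 FPKM) and was raised into (1.16) and lowered out of (-1.53) that stage. NRARP, a feedback inhibitor of the pathway, was lowered from 2.27 to 2.99 FPKM in H1 to 0.403 to 0.661 FPKM in APLNR+ libraries (-1.23), at the step where HES1 was raised. DTX1 passed the limit at no step, and HES5, HES7 and HEYL were not tested.

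Of 6 tested nuclear partners of the cleaved receptor 2 were lowered and 0 raised into CD31+CD34+ cells, beside 17.1% and 12.5% of all genes. NOTCH1, JAG2 and DLL4 were raised at this step. RBPJ, the DNA-binding partner, was at 43.6 to 70.8 FPKM in H1, 24.4 to 45.4 in APLNR+, 3.48 to 4.97 in CD31+CD34+ and 5.89 to 9.53 FPKM in CD43+ libraries, and it has processed pseudogenes that can share its reads. The earlier pair overlapped, and CD31+CD34+ libraries stood below the rest (log2 change from APLNR+ -2.86 ± 0.25, limma adjusted p 6.2e-07). SNW1, a coactivator that also acts in splicing, was lowered at the same step, by a log2 change of -1.35 (limma adjusted p 0.000178) from 25.2 to 38.1 FPKM to 9.48 to 13.2 FPKM. The other tested effectors were not called there, and MAML3, a Mastermind coactivator below 10 FPKM and named after its values were seen, was raised from H1 to APLNR+ cells (1.12). Among 7 corepressors TLE3, of the Groucho family, was raised into APLNR+ cells, from 5.36 to 8.62 FPKM to 32.5 to 38.5 FPKM (2.22, limma adjusted p 1.63e-06). TLE1 was lowered into CD31+CD34+ cells (-1.37, limma adjusted p 3.41e-06). CTBP1 was raised at that step by 1.03, which was 0.92 without APLNR+ replicate 3 and 0.93 without CD31+CD34+ replicate 1. With quantile normalization it was 0.82.

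Genes that process the receptors were mostly raised into CD31+CD34+ cells where they were called. Of 9 cleavage genes 3 were raised at this step and 0 lowered, beside 12.5% and 17.1% of all genes. FURIN, the protease that matures the receptors on their way to the surface, rose from 3.25 to 3.50 FPKM in H1 to 12.8 to 15.9 in APLNR+ and 71.7 to 77.9 FPKM in CD31+CD34+ libraries (1.83 and 2.28, limma adjusted p 1.68e-08 and 2.24e-09). Its fall to 32.7 to 40.0 FPKM in CD43+ libraries had a log2 change of -1.01. That change was -0.98 without CD31+CD34+ replicate 2 and -0.94 without CD43+ replicate 3. With upper-quartile scaling it was -0.98 and with quantile normalization -0.93. The gamma-secretase subunit genes APH1A and NCSTN were raised at the step to CD31+CD34+ cells by 1.44 and 1.16 (limma adjusted p 2.31e-08 and 0.000106), while PSEN2, a catalytic subunit, stayed under 2-fold (0.41), and ADAM10, a receptor-cleaving protease, was at 27.6 to 33.0 FPKM in CD31+CD34+ against 42.7 to 47.2 FPKM in APLNR+ libraries (-0.53).

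Of 5 glycosylation genes the Fringe enzymes LFNG and MFNG, which add sugars that shift receptors between Delta-like and Jagged ligands, were called at every consecutive step. LFNG was at 9.23 to 10.6 FPKM in H1, 1.58 to 2.37 in APLNR+, 14.5 to 15.8 in CD31+CD34+ and 5.59 to 6.39 FPKM in CD43+ libraries, with log2 changes of -1.83, 2.43 and -1.20. The first changes of LFNG and MFNG, with means below 10 FPKM in both populations, are named after their values were seen. MFNG was at 1.02 to 1.48, 0.0310 to 0.202, 28.6 to 32.5 and 68.8 to 89.5 FPKM, with changes of -1.07, 4.85 and 1.26. From CD31+CD34+ to CD43+ cells LFNG was thus lowered and MFNG raised (limma adjusted p 2.31e-06 and 4.28e-06), and libraries overlapped in neither case. RFNG, the other Fringe gene, was not called in any comparison (largest log2 change 0.38). Of 13 genes of ligand and receptor turnover 12 were tested, and 0, 1 and 0 were raised and 0, 0 and 3 lowered at the consecutive steps. Of all genes 8.3%, 12.5% and 5.58% were raised and 7.62%, 17.1% and 8.79% lowered. AAK1, a kinase of endocytosis, was lowered into CD43+ cells (-1.26, limma adjusted p 2.43e-06). MIB1, the ligase that lets ligand-bearing cells signal, was at 23.9 to 26.9 FPKM in H1 and 11.2 to 13.4 FPKM in CD43+ libraries. Its change of -1.01 was -0.95 without CD43+ replicate 1, -0.99 without CD43+ replicate 2 and -0.97 without H1 replicate 2. It was -0.90 with upper-quartile scaling and -0.88 with quantile normalization. Without small RNA and mitochondrial genes in the scaling it was -0.96, and in replicates 2 and 3 alone -0.998.

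**Figure D4:**
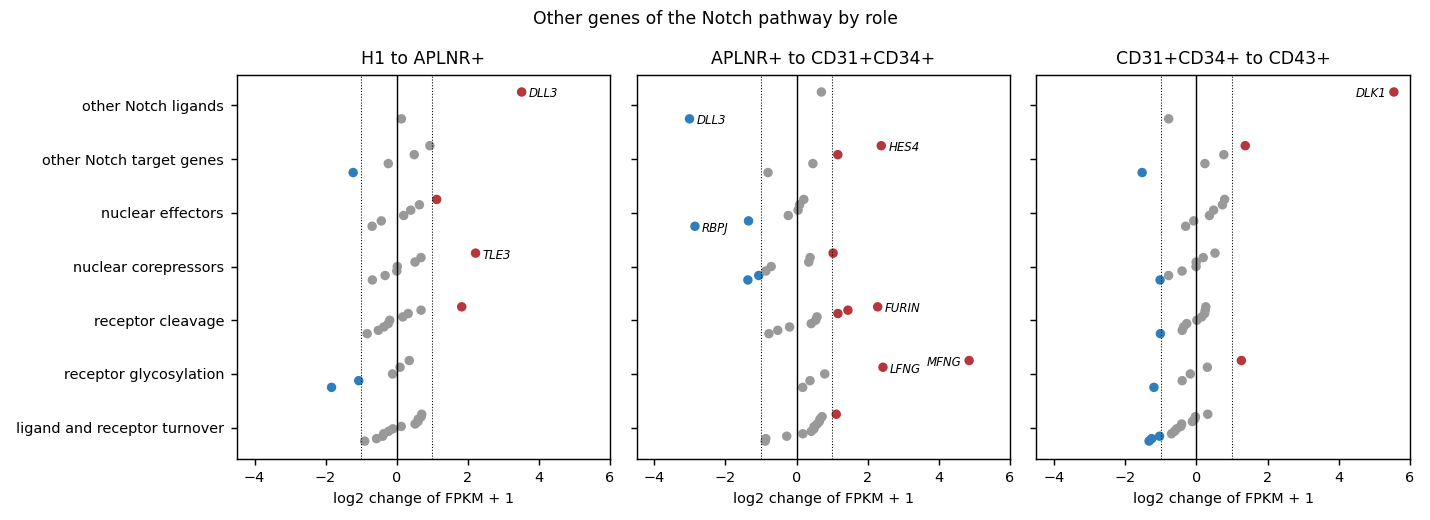
Difference of log2(FPKM + 1) at each consecutive step for the 45 tested genes of the pathway other than the 10 members, by role. Red points were called raised, blue points lowered and grey points neither, dotted lines mark 2-fold, and genes beyond 4-fold are named. DLL3, RBPJ, MFNG, LFNG, HES4 and DLK1 are among the named genes.

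The course of each tested member over the 12 libraries was compared with that of all tested genes reaching 5 FPKM, by Pearson's r of log2(FPKM + 1). Since the libraries fall into 4 populations, such an r mainly reflects 4 levels. The genes most like NOTCH1 were EXOC3L1 (r = 0.997), PTP4A3 (0.995) and MVB12A (0.995). DLL4 was most like GIMAP5, ORAI3 and RHAG (0.998, 0.998 and 0.998), and JAG2 most like PROCR, MCHR1 and ABI3 (0.993, 0.992 and 0.992). Among those for NOTCH3 were UNC5B and SORBS3 (0.981 and 0.978), and for NOTCH2 they were GTF2IRD1, AFAP1 and ADORA1 (0.983, 0.969 and 0.968). HES1 was most like BAMBI, H2AFY2 and CDK6 (0.996, 0.994 and 0.992), HEY1 most like CUL7, IGFBP7 and SLC16A3 (0.994, 0.994 and 0.994), and JAG1, whose course was nearly level, most like TLE4, SMG6 and FTX (0.932, 0.924 and 0.906). Between tested members r ran from -0.35 for NOTCH2 and DLL4 to 0.92 for DLL4 and HEY1. It was 0.91 for NOTCH1 and JAG2, 0.88 for NOTCH1 and HEY1, 0.85 for NOTCH1 and DLL4 and 0.66 for HES1 and HEY1. For NOTCH1 and NOTCH2 it was -0.12, and for NOTCH3 and DLL4 -0.01.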

How the data were processed

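RNA-seq values of 12 libraries in 4 populations were used, with groups and replicate numbers from the sample titles. The authors deposited FPKM values in 1 table. The submitters' processing notes name BWA, Bowtie, RSEM and the build hg19 without versions or roles; annotation and strand use are not given in the sources used here. The 1 line that held text was left out. For the 345 symbols listed more than once, only the most highly expressed entry entered. FPKM holds no read totals, so no count model was run and absolute depth is unknown.

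Values were transformed as log2(FPKM + 1) and fitted with limma 3.58.1 (R 4.3.3; eBayes with trend, 4 populations in 1 model) with Benjamini-Hochberg adjustment over 14840 genes. The step was tested on simulated data. Python 3.11.15, pandas 2.3.3 and matplotlib 3.10.9 did the rest. The members and lists were chosen with earlier results of these data known. All members are reported. Of other pathway genes, those called and reaching a mean of 10 FPKM in either population were named, at most 4 per list and comparison. For likeness the 3 highest r per member were taken. Some genes that these rules would name are not reported here. Alternatives were a pseudocount of 0.1, other filters, scalings, models and minimum changes, summed lines of a symbol, and leaving out libraries. Precision is limited by 3 libraries per population.

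Replicate numbers were checked for pairing by correlating same-numbered libraries' deviations from their population means. Correlations were over 0.1 for all 3 numbers from CD31+CD34+ to CD43+ cells (0.192 to 0.392) and from H1 to CD43+ cells (0.174 to 0.386), where the numbers met the rule for pairs, but not for the other steps (-0.0214 to 0.429 and 0.0254 to 0.196). All printed changes come from the fit without the block, which was an alternative.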

Additional observations from a re-analysis of the deposited data

How the results depend on the processing

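For the 8 tested members, 32 changes were recomputed under the alternatives, 764 values in all. Of these 754 kept their direction and 743 their side of the limits. The other 21 crossed into a call, 0 lost one, and 0 called changes reversed. Many of these settings cannot alter a member's log2 change. Such are other filters, the block, other models, summed lines and leaving out a library of a population not compared. Requiring no minimum change can only add calls. The counts therefore overstate how far the values were put to a test. The 10 values of another sign concerned differences that were not called, of NOTCH1 (H1 to APLNR+), NOTCH2 (H1 to CD43+), JAG1 (to CD31+CD34+) and HEY1 (to CD43+), of which NOTCH1 was -0.05 as reported and 0.04 with upper-quartile scaling. Small RNA and mitochondrial genes held 57.0% to 58.7% of the summed FPKM in H1 and 27.6% to 66.3% in APLNR+ libraries. They held 10.6% to 57.3% in CD31+CD34+ and 15.6% to 20.2% in CD43+ libraries. The FPKM and changes printed above are not scaled for this share, unless a rescaling is named. Rescaling without these genes moved the median of all genes by over 0.1, to 0.03 at the first step and -0.14 at the last. Genes raised and lowered were then 1528 and 792 in place of 1232 and 1131 at the first step, and 603 and 1663 in place of 828 and 1305 at the last.

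At the first step 3 of 8 members were called with a pseudocount of 0.1 (24.5% of all genes), 2 after that rescaling (15.8%) and 1 to 2 when a library was left out. With no minimum change 57.9%, 73.8%, 53.6% and 74.6% of all genes were called in the 4 comparisons, with 5, 7 and 6 members at the consecutive steps and 26, 36, 23 and 31 of the 45 other pathway genes. With the replicate number as a block 1, 4, 3 and 4 members were called, and the block changed none of their calls. HEY1 could not be tested with a mean of 5 FPKM required. For 42 called changes of other pathway genes 997 values kept their direction and 23 fell below the limit. These changes were taken because they were called, so they could only keep or lose a call. Their kept direction says little about stability. Leaving out libraries was also tried for the shares, after seeing the data, but with 3 libraries it cannot move a mean by 1 SD and says nothing about their stability. Changes below about 1 FPKM, as for NOTCH4 and DLL1, are limited by depth.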

Other observations

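Arterial and venous genes were read beside the Notch genes. Of 9 tested arterial genes 7 were raised into CD31+CD34+ cells, and 6 were lowered and 1 raised into CD43+ cells, against 12.5%, 8.79% and 5.58% of all genes. The gene raised was EFNB2, an arterial ephrin, named after its values were seen, at 2.97 to 4.01 FPKM in CD31+CD34+ and 10.3 to 11.4 FPKM in CD43+ libraries (1.39, limma adjusted p 2.52e-07). Of the 4 tested venous genes 3 were likewise raised into CD31+CD34+ cells, and 4 were lowered into CD43+ cells. The arterial list shares HEY2 with the Notch targets, and the venous list holds APLNR, the gene of the day 2 sort. SOX17, an arterial and endodermal factor also named after its values were seen, was at 20.6 to 28.6 FPKM in CD31+CD34+ and 1.13 to 1.58 FPKM in CD43+ libraries (-3.38, limma adjusted p 1.53e-09), at the step where DLL4 was raised.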
